A study of Mus musculus with 5 samples.

Results

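The regions described here are stretches of the mouse autosomes that carried H2AK119ub in basal epidermal cells, met no H3K27me3 region and lay between protein-coding genes. They were chosen by position from the authors' 2 deposited region lists: a member was an H2AK119ub region on chromosomes 1 to 19, under 100 kb wide, that shared no bp with an H3K27me3 region and met no protein-coding gene body extended by 1 kb on both sides. Of 33155 H2AK119ub regions, 30089 were autosomal, 29777 of these were under 100 kb, 21852 shared no bp with H3K27me3, and 8146 lay between genes. Members were thus 24.6% of the whole list and 27.1% of its autosomal part, and they covered 70.2 Mb.

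The chromatin came from back skin epithelium of mice whose labels give the genotype as control and the age as postnatal day 71. The mice carried the reporters K14-RFP and K10-H2B-GFP, and the basal progenitors were sorted by Sca1 staining, strong RFP and no GFP, so the Krt14 and Krt10 promoters and a surface antigen define the cells. Each mark had 2 libraries and there was 1 input, with 5 ng of DNA per library and single reads of 75 nt. All 5 libraries share genotype and age, so no condition was compared, and without expression data the sorted cell type was not checked against its markers. The labels do not say whether the libraries of a mark came from different mice, and neither strain nor sex is given there.

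H2AK119ub is histone H2A with a single ubiquitin on a lysine of its tail, placed by Polycomb repressive complex 1 (PRC1). H3K27me3 is placed by Polycomb repressive complex 2 (PRC2). The 2 complexes meet at many developmental genes in skin, while variant forms of PRC1 can also mark chromatin that PRC2 has not modified. Sequence between genes holds enhancers, noncoding RNA genes and long stretches with no annotated feature.

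Each mark had a single list that gives chromosome, start and end only. No height, score, p-value or replicate accompanies a region, and no source used here names the caller or its threshold, so the values that follow are positions and widths without an error between replicates. The depth of the libraries is unknown from these lists. Intervals in brackets are 95% Clopper-Pearson intervals that treat regions as independent, which neighbouring regions are not, and they cover counting error only. Coordinates are on mm10, which is GRCm38, the build of the RefSeq tables used for genes and sequences.

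Members were intergenic by protein-coding genes alone, and annotated noncoding RNA genes lay in some of them. MicroRNAs are short RNAs that pair with messenger RNAs through a seed, bases 2 to 8. Of 275 hairpins between genes, 21 (7.64%) lay wholly inside a member, and 21 lay inside a region between genes that met H3K27me3. Members held 4.97% of the sequence between genes. The hairpins in members formed 17 loci, of which 3 held more than 1 hairpin. For Mirlet7a-2 only the 3p arm was listed at its locus, so the seed shown for it is that of the 3p arm. Mature sequences from these 3 loci, 1 arm for each hairpin, are shown from RefSeq to identify the RNAs that members cover, with the seed in capitals.
miR-29a-3p: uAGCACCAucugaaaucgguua
miR-29b-3p: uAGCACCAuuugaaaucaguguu
miR-100-5p: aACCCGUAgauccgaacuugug
let-7a-2-3p: cUGUACAGccuccuagcuuuc
miR-125b-5p: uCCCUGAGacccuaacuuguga
miR-193b-3p: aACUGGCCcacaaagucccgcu
miR-365-3p: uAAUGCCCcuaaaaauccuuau

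Mir29a and Mir29b-1, whose 3p arms share the seed AGCACCA and are known to target collagen messages, lay in a single member of 58.7 kb on chromosome 6. Its nearest protein-coding gene was Klf14, 75.8 kb away. Mir100 and Mirlet7a-2 lay in a member of 33.5 kb on chromosome 9, and Mir125b-1, a miRNA studied in skin stem cells, lay in another member of 23.0 kb. These 2 members were 347 kb and 320 kb from their nearest protein-coding genes, Ubash3b and Gm40514. Mir193b and Mir365-1 lay in a member of 20.7 kb on chromosome 16, 30.5 kb from Mrtfb, which encodes an actin-regulated coactivator. Loci with more than 1 hairpin favour wide members, and the 14 hairpins of the other loci lay in members of 2.09 to 49.99 kb, 8 of them under 10 kb.

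Long noncoding RNAs took a larger part. Their gene bodies made up 22.1% of member bases and 11.9% of the sequence between genes. Of the members, 2709 (33.3%, 32.2 to 34.3%) met an annotated gene that is not protein-coding, 2320 of them a long noncoding RNA gene and 380 a pseudogene. The share meeting such a gene was 40.3% for members of 5 kb or more, and was not computed for other regions. By bases, gene bodies of any noncoding type made up 23.1% of members and 14.2% of the sequence between genes. RefSeq promoter windows of 300 bases for noncoding genes lay wholly inside members in 1026 of 7054 cases (14.5%), and inside regions between genes with H3K27me3 in 630 (8.93%). Members made up 4.97% of the sequence between genes and the regions with H3K27me3 2.81%, so both kinds held a larger share of the windows than of the sequence.

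Promoter windows from loci that recur in the results are shown, since PRC1 and PRC2 are known at sequence rich in CG dinucleotides. They run 5′ to 3′ from RefSeq on GRCm38.p6, with each CG in capitals. The window of Klf4 was outside every H2AK119ub region, while those of the noncoding genes Gm12519, Gm39096 and Junos lay in members. Junos has 6 windows in members and Gm12519 has 2, and the first Junos window with an AP-1 match and the first Gm12519 window are shown.
Klf4 promoter, chr4:55532426-55532725, minus strand: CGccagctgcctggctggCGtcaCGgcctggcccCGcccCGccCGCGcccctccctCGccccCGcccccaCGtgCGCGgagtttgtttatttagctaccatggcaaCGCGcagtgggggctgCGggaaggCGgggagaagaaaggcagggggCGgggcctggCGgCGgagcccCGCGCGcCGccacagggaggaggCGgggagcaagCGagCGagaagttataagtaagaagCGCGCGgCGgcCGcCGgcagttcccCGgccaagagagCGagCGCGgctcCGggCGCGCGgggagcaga
Gm12519 promoter, chr4:56000773-56001072, minus strand: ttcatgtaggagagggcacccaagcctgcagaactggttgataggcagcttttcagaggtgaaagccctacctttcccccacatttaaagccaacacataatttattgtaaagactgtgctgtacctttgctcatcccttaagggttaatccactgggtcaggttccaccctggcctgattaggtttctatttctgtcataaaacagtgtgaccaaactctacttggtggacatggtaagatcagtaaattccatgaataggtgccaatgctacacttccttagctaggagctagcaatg
Gm39096 promoter, chr7:130094858-130095157, minus strand: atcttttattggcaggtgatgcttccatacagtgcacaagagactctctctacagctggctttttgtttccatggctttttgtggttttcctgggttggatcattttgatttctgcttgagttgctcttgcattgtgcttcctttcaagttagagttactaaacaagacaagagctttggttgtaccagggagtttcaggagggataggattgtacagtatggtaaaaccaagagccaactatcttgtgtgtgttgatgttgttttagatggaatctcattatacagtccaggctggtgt
Junos promoter, chr4:95094563-95094862, plus strand: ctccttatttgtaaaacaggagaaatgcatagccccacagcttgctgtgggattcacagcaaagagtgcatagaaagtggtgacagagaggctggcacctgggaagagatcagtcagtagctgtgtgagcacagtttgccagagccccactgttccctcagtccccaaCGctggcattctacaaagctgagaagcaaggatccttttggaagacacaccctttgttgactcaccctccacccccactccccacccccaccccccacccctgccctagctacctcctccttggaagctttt

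The Klf4 window held 40 CGs, an observed to expected ratio of 0.974, and 74.3% G and C. The windows shown for Gm12519 and Gm39096 held 0 CGs, and that for Junos held 1. Another window in a member nearest to Fgfr2, that of Gm4265, was not shown and had a ratio of 0.252. The Junos window shown has the lowest ratio, 0.0478, of the 6 in members, which reached 0.294. These windows were picked for their loci, and all noncoding windows in members show the general level: their median ratio was 0.222 over 1026 windows, against 0.209 for the 6028 other noncoding windows between genes and 0.586 for 20085 protein-coding windows. A ratio of 0.6 or more was present in 3.12% of noncoding windows in members, in 6.34% of those outside members and in 48.9% of protein-coding windows. Windows outside members include those in H2AK119ub regions that the rule left out for meeting H3K27me3. For the 4083 noncoding windows between genes outside all H2AK119ub, the share at 0.6 or more was 5.14% and the median ratio 0.188. Noncoding promoters in members were poor in CG, as were other noncoding promoters between genes.

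Letter matches to 2 motifs were counted in the same windows on both strands. The AP-1 motif TGANTCA, bound by Jun and Fos proteins, was present in 11.2% of noncoding windows in members, 10.4% of those outside members and 7.85% of all 31396 autosomal promoter windows. Of 6 Junos windows in members, 2 held a match. The GC box GGGCGG was present in 10.04% of noncoding windows in members, 8.94% of those outside and 47.0% of protein-coding windows. Windows in members thus exceeded other noncoding windows by 0.84 and 1.1 percentage points, which was not tested.

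Members were mostly short. Their widths ran from 0.507 to 96.5 kb, with a median of 5.90 kb and quartiles of 3.15 and 10.6 kb. The 578 members of 20 to 50 kb were 7.10% of members and held 23.9% of member bases, and the 73 members of 50 kb or more held 6.65%. H2AK119ub-only regions inside genes had almost the same widths, with a median of 5.96 kb over 7540 regions. Those at gene ends had a median of 9.62 kb over 6166, and regions between genes that met H3K27me3 had a median of 9.73 kb over 2796. A wide region meets a gene end or an H3K27me3 region more easily than a narrow one, so the rule itself bears on these widths.

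**Figure D1:**
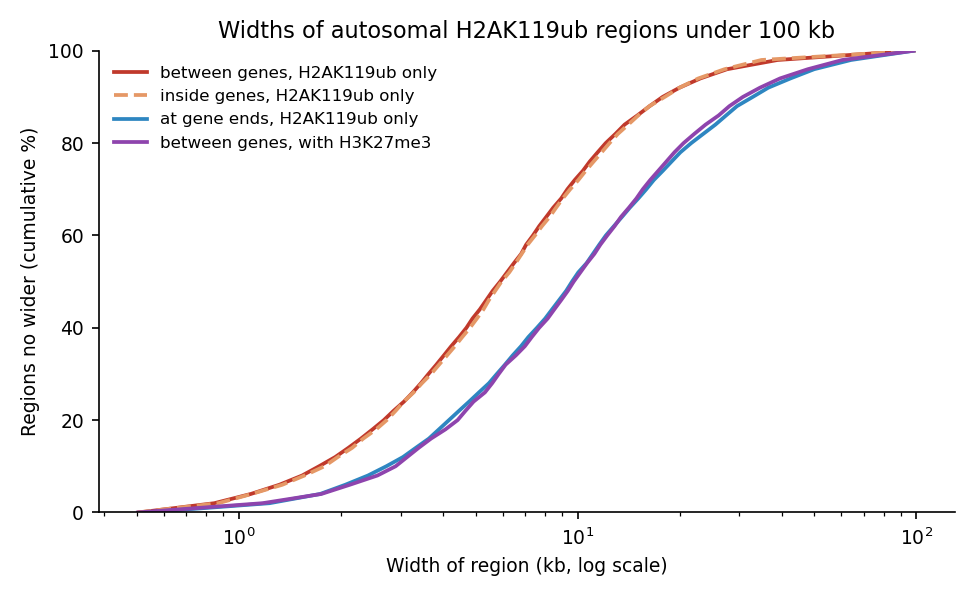
Cumulative share of autosomal H2AK119ub regions under 100 kb (y axis, %) by width (x axis, kb, log scale), with 1 line per class of region. The lines for members (between genes, H2AK119ub only) and for H2AK119ub-only regions inside genes lie together, with medians of 5.90 and 5.96 kb, to the left of the other 2 lines, with medians of 9.62 and 9.73 kb.

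The widest members lay beside genes of several kinds. The widest, of 96.5 kb, lay between Rab11fip4, which encodes an effector of the vesicle GTPase Rab11, and Utp6. A member of 92.0 kb lay between Bcl6, a transcriptional repressor, and Lpp, at 161 and 151 kb from them. A member of 90.7 kb lay between Ermard and Dll1, a Notch ligand, and members of 90.4 and 90.3 kb lay between Ackr3 and Cops8 and beside Klf13. Further members among the 10 widest lay between Lao1 and Slc2a1, the glucose transporter gene (89.6 kb), between Serp2 and Lacc1 (89.0 kb), between Rragc and Pou3f1 (86.5 kb) and between Foxo1 and Cog6 (82.8 kb). The nearest gene had both marks at its ends for 3 of the 10 widest, and H2AK119ub alone for 7. Over all members these shares were 18.3% and 54.9%, and over all autosomal protein-coding genes 18.8% and 37.6%. Nothing is read from these counts.

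The limits of the rule cut through close values. The 5 widest members measured 90.3 to 96.5 kb, and the narrowest region outside the limit 100.7 kb. In all, 10 regions of 100 kb or more met every other condition. The members nearest to a gene were 1001 to 1012 bp from it, and the nearest excluded regions 996 to 1000 bp. The members nearest to H3K27me3 were 3 to 28 bp from it, while excluded regions shared as little as 1, 19, 58, 66 and 95 bp.

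The median member was 31.0 kb from its nearest protein-coding gene, with quartiles of 10.9 and 89.8 kb. Of the members, 44.9% (43.8 to 46.0%) lay within 25 kb of a gene, 77.1% within 100 kb and 99.0% within 500 kb. The median base between genes was 91.0 kb from a gene, with quartiles of 21.7 and 305 kb, so members lay nearer to genes than intergenic sequence as a whole. Regions between genes that met H3K27me3 lay at a median of 31.5 kb. Where the nearest gene had a listed strand (6295 members), 57.2% (56.0 to 58.4%) of members faced its 5′ end. More of the sequence lay between 5′ ends on both sides (17.1%) than between 3′ ends (13.1%), so an even split is not the background. The share of sequence that faces a 5′ end was not computed. The 5 members farthest from a gene were 1085 to 1478 kb away and 0.602 to 4.81 kb wide, and the farthest lay 1478 kb from Acvr2a, an activin receptor gene, in the interval that begins at Zeb2.

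Coverage followed the distance to genes and the marks on them. Members took up 1.87% of the sequence 1 to 5 kb from a gene, where the rule removes regions that reach the gene, and 9.27% at 25 to 50 kb, the highest of 8 distance classes. Beyond 500 kb the share was 0.260%. Each gene was also classed by the regions within 1 kb of either annotated end. Around genes with H2AK119ub alone, members took up 20.4% of the sequence at 25 to 50 kb and 13.8% at 100 to 250 kb. Around genes with both marks the shares were 7.37% and 4.53%, around genes with neither mark 4.53% and 1.87%, and around genes with H3K27me3 alone 1.15% and 0.460%. Genes with H2AK119ub alone had the highest share of the 4 states in all 8 distance classes. The rule bears on this order, since it removes regions that meet H3K27me3, which took up 53.8% of the sequence 1 to 5 kb from genes with both marks and 19.5% at 25 to 50 kb. Any H2AK119ub took up 67.6% of the sequence 1 to 5 kb from genes with both marks and 63.4% from genes with H2AK119ub alone, and 26.0% and 40.6% at 25 to 50 kb.

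**Figure D2:**
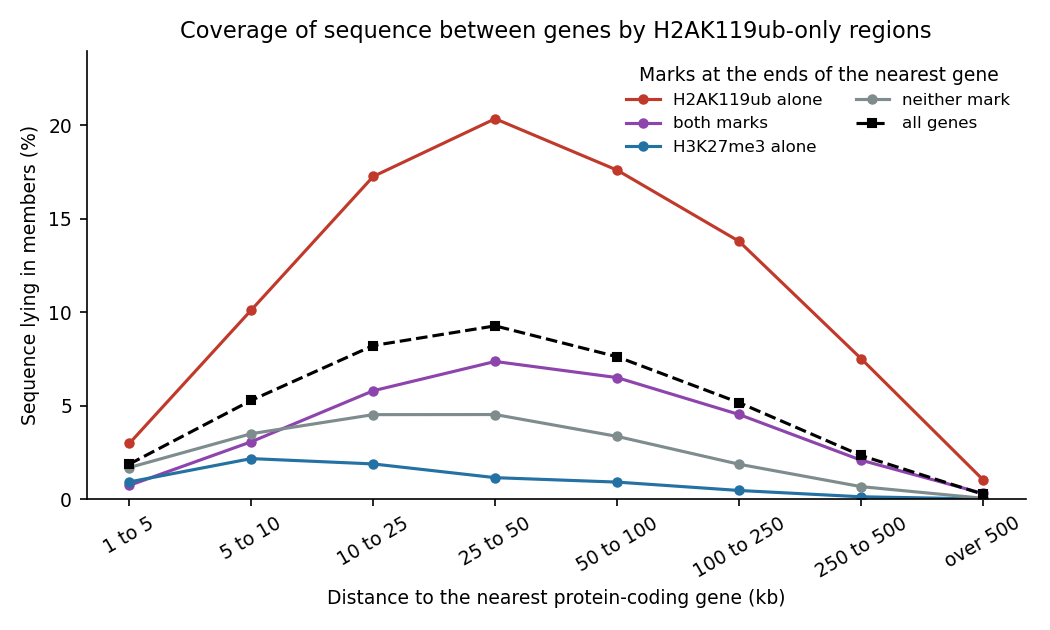
Share of sequence that lies in members (y axis, %) in 8 classes of distance to the nearest protein-coding gene (x axis, kb), with 1 line per state of the nearest gene's ends and a dashed line for all genes. The line for genes with H2AK119ub alone peaks at 20.4% between 25 and 50 kb, against 9.27% for all genes, and every line falls to 1.04% or less beyond 500 kb.

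The nearest gene had H2AK119ub at an end for 5966 members (73.2%, 72.3 to 74.2%), against 56.4% of all 20665 autosomal protein-coding genes. It had H3K27me3 at an end for 1613 members (19.8%, 18.9 to 20.7%), against 22.1% of all genes. Shares of genes do not weigh the sequence nearest to each gene. Of 1412 Mb between genes, 342.9 Mb lay nearest to genes with H2AK119ub alone and 322.6 Mb to genes with both marks. Another 122.5 Mb lay nearest to genes with H3K27me3 alone and 623.9 Mb to genes with neither. Members took up 12.3%, 3.99%, 0.598% and 2.32% of these, against 4.97% of all. The rule bears on the values around genes with H3K27me3, since it removes regions that meet H3K27me3. Counting each gene once, 49.4% of the 3567 distinct nearest genes had H2AK119ub alone, 19.2% both marks, 2.05% H3K27me3 alone and 29.4% neither. Over all genes these shares were 37.6%, 18.8%, 3.32% and 40.2%, so by number of genes the share with both marks was near that of all genes. Members over 25 kb away gave a similar split, with H2AK119ub alone at the nearest gene of 55.9%, against 54.9% for all members. For regions between genes that met H3K27me3, the nearest gene had H2AK119ub at an end in 79.2% (77.6 to 80.7%), above the members' share, and H3K27me3 in 44.5% (42.6 to 46.4%). Gene-end marks came from the same 2 lists that chose the members, at other positions, and no expression was measured.

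Another member lay within 25 kb of 5617 members (69.0%, 67.9 to 70.0%). The share was 56.4% (54.5 to 58.2%) for regions between genes that met H3K27me3, counted among themselves, and 87.2% for all autosomal H2AK119ub regions under 100 kb. A larger class lies closer together by its number alone, and the differences were not tested. Chains of members linked by gaps of up to 25 kb formed 1655 clusters, of which 292 held 5 or more members and 48 held 10 or more. The remaining 2529 members stood alone. At the short end, 29.9% of members lay within 2 kb of another. Joining members across gaps of up to 2 kb left 6746 runs, of which 15 spanned 100 kb or more and the widest 233 kb, and positions alone cannot tell a wide domain called in pieces from separate regions.

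The surroundings of members were measured in the same way. The median member was 75.9 kb from the nearest H3K27me3 region, 8.15% lay within 5 kb of one and 27.3% within 25 kb. The rule removes regions that meet H3K27me3, which bears on these values, and no background distance was computed. Another H2AK119ub region that was no member lay within 5 kb of 23.1% of members. In chains of any H2AK119ub regions with gaps of up to 5 kb, 40.0% of members stood alone and 28.3% were linked only to regions between genes without H3K27me3. A further 13.3% were linked to a region at or in a gene, 6.90% to a region between genes that met H3K27me3, and 11.5% to both kinds.

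The clusters with the most members lay beside developmental regulators and beside genes of other kinds. The 22 members of the cluster between Rragc, an mTOR pathway GTPase gene, and Pou3f1, a POU-domain transcription factor gene of keratinocytes and neural cells, took up 78.9% of 442 kb. Another 22 members took up 74.1% of 426 kb between Celf2 and Gata3. The cluster between Plpp3 and Usp24 held 19 members over 383 kb, and that between Ktn1 and Peli2 19 over 253 kb. A cluster of 18 members between Ly86 and Rreb1, a Ras-responsive transcription factor gene, had the highest filling of the 10, at 86.8% of 343 kb. The others lay between Egln3 and Sptssa, between Gm46320 and Bcl11b (across the predicted gene Gm52008), between Nox3 and Arid1b, between Exoc2 and Foxq1, and between Gm5148 and Ankrd50, with 17 or 18 members each.

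Members were spread unevenly between genes. Of 15699 intervals between neighbouring gene bodies extended by 1 kb, 2993 (19.1%) held a member, and these spanned 38.6% of the sequence between genes. The 785 intervals (5%) with the most members, ranked by that number, held 62.7% of members and spanned 19.3% of the sequence. Long intervals did not all hold members, and 336 of the 599 intervals of 500 kb or more (56.1%) held none. The longest interval without a member, 4540 kb between the protocadherin genes Pcdh20 and Pcdh9, was 0.0103% covered by any H2AK119ub region. The next longest lay between Olfm4 and Pcdh17, Cntnap5b and Cdh20, Tenm3 and Aga, and Slc39a10 and Tmeff2, with up to 0.0323% covered.

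**Figure D3:**
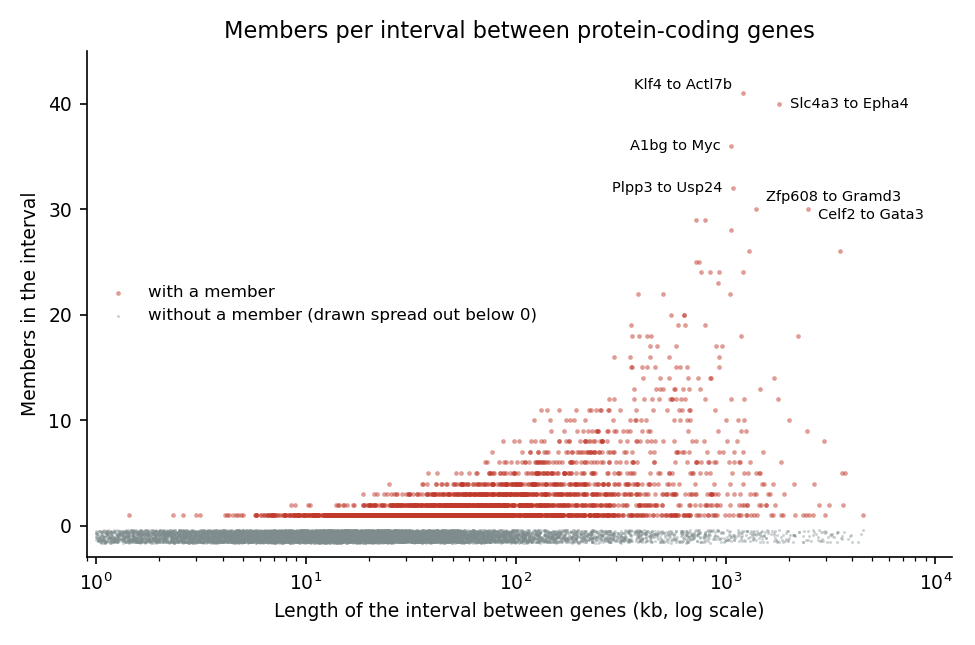
Number of members (y axis) in each interval of 1 kb or more between neighbouring protein-coding genes, by the interval's length (x axis, kb, log scale), with intervals without a member spread out below 0. Among intervals of 500 kb or more, 336 of 599 hold no member, while the interval from Klf4 to Actl7b holds 41.

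The interval with the most members, 41, lay between Klf4 and Actl7b (chr4:55533476-56739004). Members took up 543 kb, or 45.02% of it, and H3K27me3 regions 1.43%. Slc4a3 to Epha4, an ephrin receptor gene, followed with 40 members in 15.3% of 1806 kb, and A1bg to Myc with 36 in 27.4% of 1062 kb. Plpp3 to Usp24 held 32, and Celf2 to Gata3 and Zfp608 to Gramd3 held 30 each. The rest of the first 10 were Gm52008 to Bcl11b and Gm5148 to Ankrd50 with 29 each, Mctp2 to Rgma with 28 and Nox3 to Arid1b with 26. Of the 20 genes that bound these 10 intervals, 16 had H2AK119ub at an end, with or without H3K27me3, and 4 had neither mark, while 56.4% of all genes had H2AK119ub. The intervals were picked by their H2AK119ub members, and nothing is read from this count.

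Ranked by member bases, intervals that were filled most densely came forward. Members took up 74.6% of the 525 kb between Wdr11 and Fgfr2, 70.9% of the 468 kb between Map3k1 and Ankrd55, and 64.6% of the 503 kb between Jun and Fggy, and no H3K27me3 region lay in any of these 3. They took up 56.7% of Foxo1 to Cog6 and 51.1% of Rragc to Pou3f1. The interval from Cd83 to Jarid2, which encodes a PRC2 cofactor, held 24 members in 34.8% of its length beside H3K27me3 regions in 17.5%, the highest H3K27me3 share among the 10.

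Intervals bounded by 5′ ends on both sides made up 17.1% of the sequence and held 20.8% of the members. Those between 3′ ends made up 13.1% and held 11.2%. Intervals with 1 end of each kind made up 35.0% and held 33.4%, and the rest had a gene whose strand was not listed. The share of sequence in members was 5.55%, 4.49% and 4.80% in the 3 kinds, so orientation went with a small difference in coverage.

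Few genes had many members. Of 20665 autosomal protein-coding genes, 3567 (17.3%) were the nearest gene of at least 1 member, 2005 of them of exactly 1, and 90 of 10 or more. Zfp608, a zinc finger gene, had 39 and Myc, a transcription factor of growth, 38. Gata3 had 30, Gm52008, a predicted gene, 28, and Arid1b, a chromatin remodelling subunit, 26. Klf4 and Efnb2, an ephrin ligand gene, had 25 each, Pik3r1, the regulatory subunit of PI3 kinase, 24, and Usp24 and Epha4 23 each. The size of the territory, the sequence nearest to a gene, differed widely among them: members took up 66.8% of that of Gm52008, 57.4% of that of Usp24 and 55.5% of that of Klf4, but 10.5% of that of Efnb2 and 9.93% of that of Epha4. Of the 10, 8 had H2AK119ub alone at their ends, and Zfp608 and Gata3 had both marks. Over all genes these shares were 37.6% and 18.8%. The 10 were picked by their members, and nothing is read from this count. Over the 4879 genes with a territory of 50 kb or more, 60.01% had no member at all.

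Klf4 encodes a transcription factor of epidermal barrier formation, and lies on the minus strand at chr4:55527137-55532475. Of its 25 members, 23 lay upstream. They were 1.48 to 63.2 kb wide with a median of 9.69 kb, and reached from 1.04 to 584 kb from the gene. The nearest started 1.04 kb upstream and was 31.3 kb wide, and the widest started 157 kb upstream. A non-member region ended at 55531928 in the gene and the nearest member began at 55533511, so 1.58 kb around the 5′ end, with the CG-rich promoter window shown above, lay outside any called H2AK119ub. The H3K27me3 region nearest to a member was 3.84 kb from it.

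Jun, an AP-1 transcription factor gene of stress and proliferation responses (chr4:95049036-95052222, minus strand), had 11 members, 10 of them upstream. Its 5′ end also fell in a break, of 1.42 kb, between a region on the gene and the nearest member, which was 4.53 kb wide. Members lie over 1 kb from a gene by the rule, which sets a lower limit on such a break. Breaks at 5′ ends were measured only for Klf4 and Jun, and 29.9% of all members lay within 2 kb of another. After the member nearest to Jun, the next was 50.2 kb wide, started 6.95 kb upstream and held the Junos window shown. Together the 11 were 180 kb wide. Members of any nearest gene took up 64.7% of the territory of Jun, the sequence nearest to it, and the nearest H3K27me3 region was 2282 kb from any of them.

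Fgfr2, a receptor of fibroblast growth factors in keratinocytes (chr7:130162451-130266808, minus strand), had few but wide members. From the nearest downstream to the farthest, 5 members were 26.6, 76.5, 21.3, 75.0 and 62.0 kb wide, and a single upstream member was 48.6 kb wide. The 6 were 310 kb wide, part of it beyond the territory of Fgfr2, of which 88.0% lay in members, and none was within 300.3 kb of H3K27me3. The Gm39096 window lay in the member of 76.5 kb, 29.8 kb from Fgfr2.

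Myc (chr15:61985341-61990361) had 27 members on its lower-coordinate side and 11 on the other, 0.650 to 69.1 kb wide and up to 527 kb away. All 30 members of Gata3, a regulator of the hair follicle's inner root sheath, lay on its downstream side, from 54.4 to 1179 kb. The gene itself carried both marks, and the nearest H3K27me3 was 68.5 kb from a member. All 17 members of Sox9, a hair follicle stem cell regulator with both marks at its ends, lay on the lower-coordinate side from 32.6 to 460 kb, and 1 was 3.63 kb from H3K27me3. Members nearest to these 3 genes thus lay on both sides of Myc but on a single side of Gata3 and Sox9. The interval on the other side of Gata3 (Gata3 to Taf3) was only 24.6 kb long, against 2459 kb from Celf2 to Gata3. An H2AK119ub region ran from -52.95 to 53.16 kb around the lower-coordinate end of Gata3. It was no member, since it met H3K27me3 and the gene itself and was wider than 100 kb. It covered the gene and most of the interval to Taf3, so the rule bears on where the members of Gata3 lie. The interval on the other side of Sox9 (Sox9 to Slc39a11) was 455 kb long and held 6 members, all nearest to another gene.

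Genes were then grouped by 21 lists of epidermal and other functions, and each list is given by the share of its territory in members beside the 4.97% of all autosomal protein-coding genes. No list was tested, and a list led by a single gene is also given without it. Epidermal transcription regulators had 27.8%, and 27.8% without Myc, so the value did not rest on that gene. Of the 38 genes, 22 (57.9%, 40.8 to 73.7%) were the nearest gene of a member, against 17.3% of all genes, with 200 members in all. Their territories were long, at a median of 131 kb against 15.9 kb for all genes, and a long territory offers more room for a member. Members took up 64.7% of the territory of Jun, 55.5% for Klf4, 49.9% for Klf5, a factor of proliferating epithelium, 30.2% for Gata3, 29.1% for Sox9 and 27.7% for Myc.

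Among genes of the epidermal layers, few led the values. Suprabasal genes had 29.7% but 10.7% without Klf4, and 6 of 28 were nearest to a member. Besides Klf4 these were Tgm3, a crosslinking enzyme of the cornified layer (2 members, 48.1% of its territory), Grhl3 (1, 34.5%), Casp14 (1, 13.7%), Elovl4 (2, 12.1%) and Abca12 (2, 6.60%). Basal genes had 22.1%, and 12.3% without Fgfr2, with 10 of 26 nearest to a member. Igfbp3, which binds insulin-like growth factors, had 16 members, and Itgb1, the beta 1 integrin, Col17a1, a hemidesmosome collagen, and Trp63, the master regulator of stratified epithelium, had 2 each. Keratins had 5.61%, with 4 of 49 genes nearest to a member, and 2.78% without Krt80, which had 2 members, so the list lay below the value of all genes without it.

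Hair follicle genes had 17.9%, and 13.5% without Gata3, with 12 of 25 nearest to a member. Plet1 had 6 members, and Lrig1, an EGF receptor antagonist of the upper follicle, and Tcf7l2, a Wnt effector, had 5 each. Ligands and antagonists of the Wnt, Bmp, Fgf and Hedgehog pathways had 7.47%, with 14 of 50 nearest to a member. Bmp2 had 13, Bmp4 9, and the Bmp antagonist Nog and the Wnt antagonist Sfrp1 5 each, all 4 genes with both marks at their ends. Without Bmp4 the list had 6.29%. Notch genes had 8.43%, and 6.08% without the leading gene, the coactivator Maml3 (7 members). The ligand Jag1 had 6. EGF family genes had 6.96%, led by Errfi1, an EGF receptor inhibitor, which had 3 upstream members of 49.99, 12.8 and 30.7 kb. Members took up 75.7% of its territory, and the list had 4.44% without it, below the value of all genes.

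Pigmentation factors, which keratinocytes send to melanocytes or share with them, had 12.6%, and 10.4% without Cxcl12, with 9 of 22 nearest to a member. Cxcl12, a chemokine, had 13 members, all downstream, 36.8 to 245 kb away. Edn1, the endothelin gene, had 6, 2 upstream and 4 downstream. Kitl, the ligand of the Kit receptor, had both marks at its ends and 3 upstream members, at 26.8, 51.9 and 72.9 kb, 10.6, 8.53 and 6.07 kb wide. The nearest H3K27me3 region was 17.3 kb from a member.

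Chromatin and growth control genes were also measured. Polycomb subunit genes had 16.1%, but 4.51% without Jarid2, whose 14 members all lay upstream. Eed, a PRC2 core subunit, and Pcgf5, a PRC1 subunit, had 2 each. Cell cycle inhibitors had 9.59%, and 6.95% without Gadd45a, with 4 of 16 genes nearest to a member: Btg1 (10 members), Gadd45a (4), Cdkn2b (3) and Cdkn1b (2). Housekeeping genes had 27.2%, and 18.7% without Ywhaz, on territories with a median of 4.92 kb. That was a share close to that of the epidermal regulators. Ribosomal protein genes had 7.39%, and 5.33% without Rpl14, and solute carriers 8.34%, and 7.89% without Slc4a3.

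Lists of other cell types had a lower share of territory in members, but not all had fewer genes nearest to a member. Fibroblast genes had 3.80%, with 8 of 20 (40.0%) nearest to a member, and melanocyte genes 1.59%, with 7 of 21 (33.3%), against 17.3% of all genes. Immune and endothelial genes had 2.61%, with 4 of 26, and Merkel cell genes 1.14%, with 2 of 18. Without their leading genes Thy1, Pax3 and Sox2, the fibroblast, melanocyte and Merkel cell lists had 1.86%, 1.03% and 0.306%. Transcription factors of lineages outside the epidermis had 1.38%, with 8 of 48 nearest to a member, while 46 of the 48 genes had both marks at their ends and their territories were long, at a median of 112 kb. Sox2, which is active in Merkel cells and neural tissue, led that list with 10 members in 5.29% of its territory. Olfactory and vomeronasal receptor genes had 0.167%, with 15 of 1452 nearest to a member, and protocadherins 0.0217%, with 1 of 67. Of the 21 lists, these 7 lay below the value of all genes and 14 above it, 11 of them also without their leading gene. The lists also differed in the marks at gene ends, and 19 of 26 basal and 16 of 28 suprabasal genes had H2AK119ub alone. Members took up 12.3% of all sequence nearest to genes in that state. The value was 3.99% with both marks, 0.598% with H3K27me3 alone and 2.32% with neither. List values were not adjusted for these states.

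**Figure D4:**
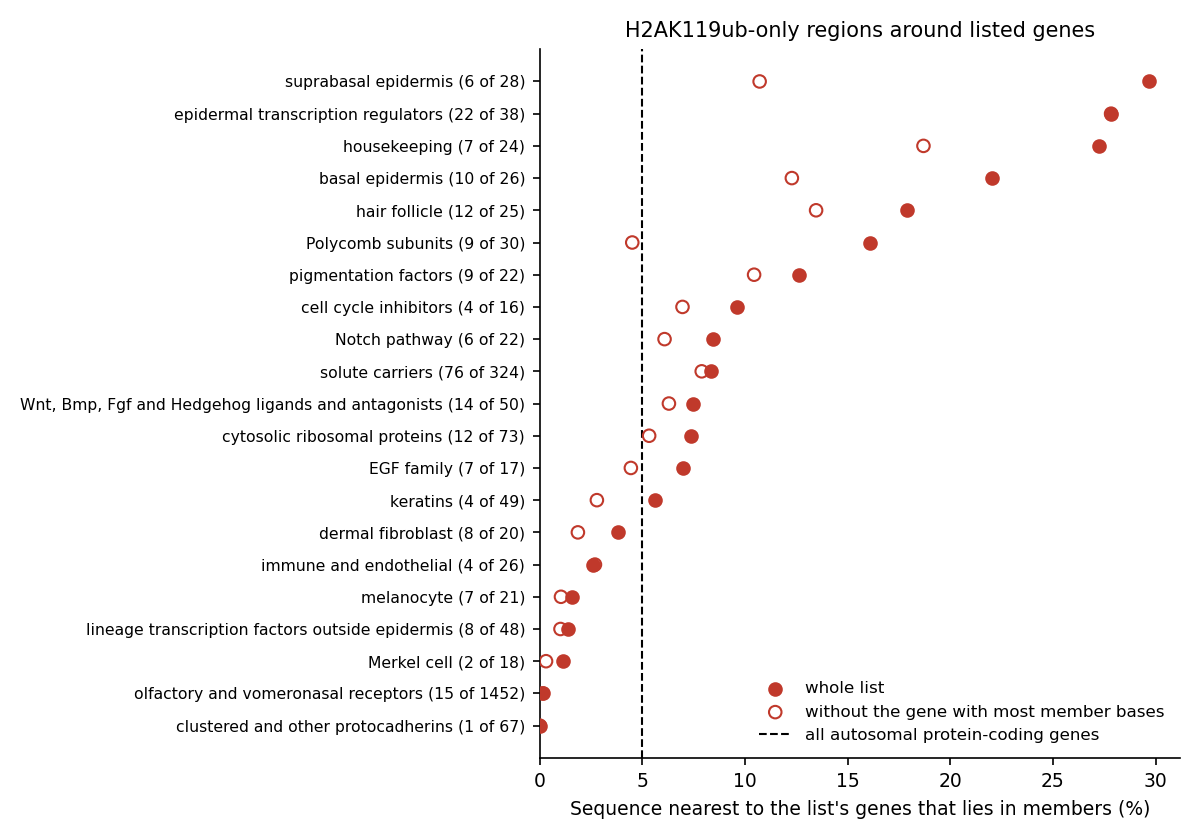
Share of the sequence nearest to each list's genes that lies in members (x axis, %), for 21 gene lists (y axis, with the number of genes nearest to a member of the number in the list). Filled points are whole lists, open points leave out the gene with the most member bases, and the dashed line is the 4.97% of all autosomal protein-coding genes: epidermal transcription regulators stay at 27.8%, and suprabasal genes go from 29.7% to 10.7%.

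Chromosomes differed less than genes. Members took up 3.64% of the sequence between genes on chromosome 14, the lowest, and 7.51% on chromosome 13, the highest, with 4.42 and 8.15 members per Mb. Chromosome 11 followed with 6.65%. The median width ran from 5.02 kb on chromosome 19 to 6.77 kb on chromosome 4, and the median distance to a gene from 17.9 kb on chromosome 19 to 60.04 kb on chromosome 13.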

How the data were processed

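Chromatin immunoprecipitation and sequencing of sorted basal epidermal cells gave 2 libraries per mark and 1 input. The authors deposited 1 list of positions per mark (per the file headers, a chromosome with a start and an end). The submitters' processing notes name Bowtie2 2.3.3.1, SAMtools 1.9 and mm10, and no source used here gives the peak caller, its threshold, use of the input or pooling. Starts were read as counted from 0 and moved to counting from 1, which is uncertain by 1 bp. Overlaps needed at least 1 bp.

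Genes came from RefSeq on GRCm38.p6 (20665 autosomal protein-coding genes, 16457 of them with a strand in the promoter table). Each base between genes, and each member, was assigned to the gene with the nearest annotated edge. Clusters allowed gaps of 25 kb. Calculations used Python 3.11.15, numpy 2.4.6, pandas 2.3.3, scipy 1.17.1 and matplotlib 3.10.9, and the overlap functions gave 0 mismatches with a direct count in 5 rounds on simulated regions. No p-value was computed, since each mark has 1 list.

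Members and gene lists were chosen with earlier results of these data known. There were 21 lists, 16 of symbols and 5 of name patterns. Of 434 listed symbols, 3 had no autosomal gene (Eda, Sox3 and Asip), and 42 genes were on 2 or more lists. Named genes flank the 10 widest members, the 10 intervals with most members or member bases, the 10 largest clusters and the 5 farthest members, or are among the 6 genes of a list with most member bases. The genes with the most members, the longest intervals without members, the miRNA loci, the links across 2 and 5 kb and the list values without a leading gene were added after the data had been seen. Alternatives changed the gene set, its extension together with the window around gene ends, the width limits and the separation from H3K27me3. Others changed the linking gap and the point that distances were measured from.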

Additional observations from a re-analysis of the deposited data

How the results depend on the processing

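Of 51 alternatives, 29 left the value within 1.5 times (counts) or within the 95% interval of the main value (medians and shares), and 22 moved it. With members of 5 kb or more, 4649 members remained, with a median width of 9.676 kb and a median distance to a gene of 33.62 kb. The share within 25 kb of another was then 61.37%, the share whose nearest gene had H2AK119ub 76.79%, and the share meeting a noncoding gene 40.27%. With all annotated RefSeq genes in place of protein-coding genes, 5216 members had a median width of 5.133 kb and a median distance of 11.92 kb, 57.84% lay within 25 kb of another, and the nearest gene had H2AK119ub for 61.06% and H3K27me3 for 13.8%, against 44.73% and 17.91% of all those genes. Without extension of gene bodies the median distance was 24.85 kb and the 2 shares were 55.29% and 15.93%, against 48.65% and 19.4% of all genes. With an extension of 5 kb they were 39.24 kb, 83.1% and 25.87%, against 62.71% and 28.59%. The window around gene ends was set to the same extension, so both settings also change which genes count as marked. In each of these settings the H2AK119ub share lay above its background and the H3K27me3 share below it. Every setting removes regions that meet H3K27me3, which bears on the lower H3K27me3 share, and the differences were not tested. Requiring 5 kb between a member and H3K27me3 gave an H3K27me3 share at the nearest gene of 17.56%. Gaps of 10 and 50 kb put 56% and 77.42% of members near another, and distances from the member's centre had a median of 35.73 kb. No paired analysis was possible because each mark has 1 list without replicate columns, and leaving out a library was not possible for the same reason. A library's depth is unknown, so a region below the authors' threshold cannot be told from an unmarked one.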
